A study of Mus musculus with 56 samples.

Results

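Vitamin A metabolism in the liver was described by 9 genes: Rbp4, Lrat, Rdh11, Rdh16, Dhrs9, Aldh1a1, Aldh1a7, Cyp26a1 and Rarb. For each gene, the first row under its symbol in the deposited RNA table was used, and all 9 of the 23813 genes in the table were found by this rule. Liver RNA was sequenced from male mice in 3 groups of 4 animals. Hypothyroid WT mice were fed an iodine-poor diet with propylthiouracil (PTU), which blocks thyroid hormone synthesis. Hyperthyroid WT mice were fed the same diet and were then injected with triiodothyronine (T3), the active thyroid hormone. Hypothyroid L-NCOR1ΔID mice were fed the PTU diet without T3 and express, in the liver, a form of the nuclear receptor corepressor NCOR1 that lacks the domains by which it binds the thyroid hormone receptor (TR). The driver of this liver-specific change is not given in the sources used here. All 3 groups therefore received PTU, the mutant line is kept on a mixed C57BL/6 and 129S background, and the labels give no ages. The study's supplement lists a lower mean age and a higher mean liver weight for L-NCOR1ΔID than for WT animals, over more mice than were sequenced, so that age and genotype cannot be told apart in the mutant comparisons. The levels are RPKM, read levels scaled for transcript length and sequencing depth, of poly(A) RNA from whole liver. In such bulk RNA, fewer cells of a type and less RNA per cell cannot be told apart.

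Retinol leaves the liver bound to RBP4, and it is stored as retinyl ester, made by LRAT, mainly in the lipid droplets of hepatic stellate cells. Retinol is oxidised in a reversible step to retinal by dehydrogenases such as RDH16 and DHRS9, RDH11 works mostly in the reducing direction, and the ALDH1A enzymes convert retinal irreversibly to retinoic acid. Retinoic acid activates the retinoic acid receptors (RARs), which bind DNA with RXR, the same partner that TR uses, and it is cleared by CYP26A1. The genes for CYP26A1 and for the receptor RARβ are themselves classic RAR targets, so that their RNA is often read as a gauge of retinoic acid signalling.

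The genes called differed between the steps of the pathway and between the comparisons. Rdh16 fell with T3, Dhrs9 rose in both T3-treated and mutant livers, Rarb rose with T3, and Cyp26a1 was lower in T3-treated than in mutant livers, while Rbp4 was not called in any comparison. All 4 hypothyroid WT values of Dhrs9 were below the filter on low values, so that it could be tested only through the groups where it is high. The T3 calls of Dhrs9 and Rarb, both low genes, were lost at a pseudocount of 1 RPKM. The threshold for a call was 0.01 on the adjusted p, and with T3 the log2 fold change had also to exceed 1 in either direction. All adjusted p-values are from limma on log2(RPKM + 0.1), with Benjamini-Hochberg adjustment over all genes tested.

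Cyp26a1 and Rarb are shown first by sequence, since both carry at their start sites the kind of element by which RARs are known to act. The start-site sequences are the RefSeq promoters (from the GRCm38.p6 table, 250 bases before to 50 after the start site), which were found without a mismatch in mm9, the genome build of the deposited files. The Cyp26a1 promoter lies at chr19:37772048-37772347 on the plus strand and that of Rarb at chr14:17407941-17408240 on the minus strand. Capitals mark the half-sites of a direct repeat with 5 bases between them, searched on both strands. A half-site read AGGTCA, the consensus, or a variant of it. The first variant is AGTTCA. The second is GGGTCA. The third is GGTTCA. In Cyp26a1 the repeat is on the other strand, so that its half-sites read TGAACT here.
Cyp26a1 promoter: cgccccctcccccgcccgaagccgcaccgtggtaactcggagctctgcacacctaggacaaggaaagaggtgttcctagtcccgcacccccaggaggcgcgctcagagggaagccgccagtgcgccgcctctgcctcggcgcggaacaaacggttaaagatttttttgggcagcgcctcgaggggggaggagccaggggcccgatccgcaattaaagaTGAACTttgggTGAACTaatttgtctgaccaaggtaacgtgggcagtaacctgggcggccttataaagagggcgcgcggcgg
Rarb promoter: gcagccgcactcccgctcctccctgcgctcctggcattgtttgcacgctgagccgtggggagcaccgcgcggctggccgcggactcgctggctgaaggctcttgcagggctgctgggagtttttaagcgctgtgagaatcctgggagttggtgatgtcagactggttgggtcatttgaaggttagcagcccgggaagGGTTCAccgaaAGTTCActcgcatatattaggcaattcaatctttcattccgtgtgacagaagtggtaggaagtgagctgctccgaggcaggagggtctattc
The repeat began 32 bases before the start site in Cyp26a1 and 53 bases before it in Rarb. Only 26 of 27025 mouse promoters of this length, or 0.0962%, held such a repeat. The other 7 genes had none in their promoters, and none of the 9 had a repeat of these half-sites with 1, 2 or 4 bases between them. Repeats with 4 bases between the half-sites, the spacing TR is known to prefer, were present in 0.0851% of all promoters. A match in sequence is a description and not a measured binding site.

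In a wider window, from 2500 bases before to 500 after the start site, 1 further repeat with 5 bases between half-sites was found, upstream of Cyp26a1. It began 1899 bases before the start site, at chr19:37770384-37770430 with the flanks shown, and is printed because the gene then holds both a proximal and a distal repeat.
Cyp26a1 upstream repeat: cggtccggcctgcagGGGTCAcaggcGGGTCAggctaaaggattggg
Windows of this length around 25162 mouse start sites held a repeat with this spacing in 1.08% of cases. None of the 9 genes had a repeat with 2 or 4 bases between half-sites in this window, where 3.37% and 0.966% of windows did.

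The deposited list of 37200 H3K9Ac or H3K27Ac regions, which gives neither read numbers nor the condition a region came from, was used to see which of the start sites lay in acetylated chromatin. The start site lay in an acetylated region for 8 of the 9 genes. This share is near that of all genes tested whose start site could be placed, 8858 of 10031 or 88.3%. The region at Cyp26a1, chr19:37769088-37775032, spanned 5945 bases and held both of its repeats, and the region at Rarb, chr14:17402583-17409062, spanned 6480 bases and held its repeat. The region at Rdh16, chr10:127235451-127242454, spanned 7004 bases, and that at Dhrs9, chr2:69218052-69220616, spanned 2565 bases, where the median over all genes with a region was 3891. Lrat was the exception, with its nearest region 37978 bases from the start site at chr3:82707896. Within 100 kb of the start site there were 3 to 12 regions per gene with a median of 7, beside a median of 7 over all genes. A further region lay 3892 to 8491 bases downstream of the Dhrs9 start site, outside the windows searched for repeats. It holds a TR binding site that the study measured by ChIP-qPCR. The study places this site among those with high occupancy of the histone deacetylase HDAC3 in hypothyroid livers. The part of this site in the Dhrs9 values was not tested.

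**Figure D1:**
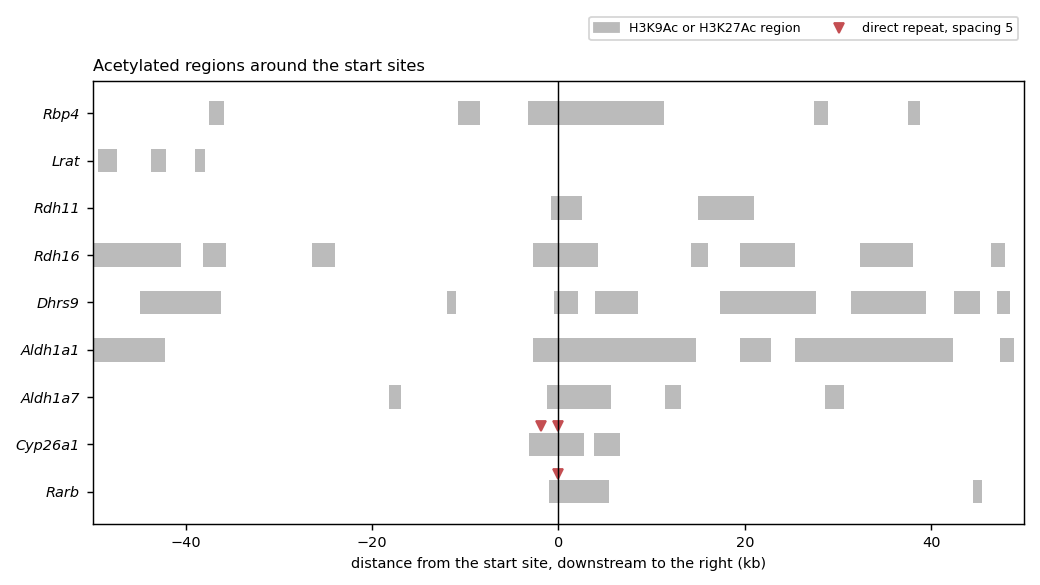
H3K9Ac or H3K27Ac regions (grey bars) within 50 kb of the start site of each of the 9 genes, by distance in kb with downstream to the right, and direct repeats with 5 bases between half-sites (triangles), with the second listed start site for Aldh1a1. A region covers the start site of 8 genes, with none nearer than 37978 bases at Lrat, and repeats are marked at Cyp26a1 and Rarb.

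The 12 libraries were alike in summed RPKM (491073 to 529372), but depth, read from the steps between low RPKM values, followed the groups. Relative to hypothyroid WT replicate 1 it was 0.932 to 1.22 in hypothyroid WT, 0.681 to 0.835 in hyperthyroid WT and 1.22 to 1.36 in mutants, and its part in the results was not tested. Hyperthyroid replicate 3, the shallowest library, stood apart in 6 exocrine pancreas markers, which summed to 1100 RPKM in it, to 73.5 to 91.5 in the other hyperthyroid libraries and to at most 15.3 elsewhere. In the other hyperthyroid libraries the sum was mostly 1 marker, Cela1, at 68.4 to 83.2 RPKM. Without replicate 3, the T3 log2 fold changes were -3.09 for Rdh16, 1.43 for Rarb and, with the filter in 3 libraries, 2.53 for Dhrs9, all still called. Between hyperthyroid WT and mutants Rdh16 was then still called (-3.13) and Cyp26a1 was not (-1.99, adjusted p = 0.014). The 8 hepatocyte markers summed to 22066 to 55277 RPKM, as is usual for liver, where albumin and transthyretin RNA are abundant. Ncor1 was at 14.1 to 15.6 RPKM in hypothyroid WT and at 12.1 to 13.9 in L-NCOR1ΔID livers (log2 fold change -0.18 ± 0.07, SE, adjusted p = 0.20), a value for the whole transcript that cannot show loss of part of it. The T3-responsive genes Dio1 and Thrsp were higher in all 4 hyperthyroid than in all 4 hypothyroid WT livers, with log2 fold changes of 6.20 and 2.29. Dio1 was uneven among the hypothyroid livers, at 57.7 RPKM in WT replicate 3 against 0.719 to 8.98 in the others, and at 0.567 and 0.591 in mutant replicates 1 and 2 against 20.9 and 12.1 in replicates 3 and 4. With T3 the median log2 fold change over all genes was 0.23. When libraries were instead scaled by the median of gene ratios this became 0.02, and 53.8% rather than 70.5% of the calls were higher. Between hyperthyroid WT and mutants, 45.8% rather than 73.1% of the calls were then higher.

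Among the 9 genes, Rbp4 was the most abundant, and it did not pass a test in any comparison. RBP4 carries retinol from liver to blood. Rbp4 was at 1713, 1810, 1781 and 1791 RPKM in hypothyroid WT livers, at 1679, 1573, 1943 and 1971 in hyperthyroid WT livers, and at 1425, 1896, 1726 and 1570 in mutant livers. The groups overlapped, and the spread was smallest in hypothyroid WT (coefficient of variation 2.39%, against 10.9% with T3 and 12.2% in mutants). The log2 fold change with T3 was 0.01 ± 0.12 (SE, adjusted p = 0.96), and it was -0.22 with median-ratio scaling, so that its sign rests on the scaling. In mutants it was -0.11 ± 0.13 (SE, adjusted p = 0.67). A second Rbp4 transcript in the table, at 2009 to 2740 RPKM, was highest and lowest in the same libraries.

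Lrat, the enzyme that esterifies retinol for storage, was low in whole liver. Its levels were 2.88, 1.63, 2.45 and 2.84 RPKM in hypothyroid WT, 5.55, 3.995, 4.67 and 4.55 with T3, and 4.55, 4.41, 2.87 and 2.93 in mutants. Every hyperthyroid library was above every hypothyroid WT library, and the mutants overlapped both groups. The mean with T3 was 1.92 times that without (log2 fold change 0.93 ± 0.18, SE, adjusted p = 0.0029), just under the fold required for a call. With median-ratio scaling this log2 fold change was 0.71 (adjusted p = 0.014), and with libraries left out in turn it was 0.76 to 1.02, which was a call without hypothyroid WT replicate 1 or 4 or hyperthyroid replicate 2. In mutants the log2 fold change was 0.57 ± 0.22 (SE, adjusted p = 0.18). Hepatic Lrat RNA is known to come mainly from stellate cells, and the summed level of the 12 stellate cell markers was 99.3 to 130 RPKM in hypothyroid WT, 153 to 202 with T3 and 127 to 178 in mutants. This sum was mostly Ecm1 and Dcn. Of the 11 markers tested, limma called 0 in mutants, where 5 were higher at an unadjusted p under 0.05, and with T3 7 were higher at an unadjusted p under 0.05. With T3 the log2 fold change was above 0 for 10 of the 11 and was -0.19 for Reln. Over all genes tested, 1759 of 13790 in mutants and 5980 of 13941 with T3 were higher at an unadjusted p under 0.05. With T3, 9751 of the 13941 had a log2 fold change above 0. The part of stellate cell number in the Lrat values was not tested.

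Among the dehydrogenases that interconvert retinol and retinal, Rdh16 and Dhrs9 moved in opposite directions with T3. RDH16 oxidises retinol and is abundant in hepatocytes. Rdh16 was at 37.9, 24.2, 23.8 and 28.4 RPKM in hypothyroid WT, at 2.59, 2.74, 3.74 and 4.60 with T3, and at 49.3, 25.7, 27.9 and 19.4 in mutants. All 4 hyperthyroid livers were far below all 8 hypothyroid livers, and WT and mutant livers overlapped. Rdh16 fell 8.36-fold with T3 (log2 fold change -3.04 ± 0.21, SE, adjusted p = 1.3e-05). In hyperthyroid WT it was 8.95-fold lower than in mutants (log2 fold change -3.08 ± 0.28, SE, adjusted p = 9.7e-05), and the mutants differed from hypothyroid WT by a log2 fold change of 0.04 ± 0.27 (SE, adjusted p = 0.95).

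Dhrs9, a short-chain dehydrogenase that oxidises retinol, was close to the limit of detection in hypothyroid WT. It was at 0.034, 0.046, 0.049 and 0.046 RPKM there, at 0.226, 1.257, 0.999 and 1.196 with T3, and at 0.427, 0.819, 0.640 and 0.439 in mutants. From the steps between values, these correspond to 3, 4, 4 and 5 reads in hypothyroid WT, to 16, 89, 60 and 88 with T3 and to 49, 88, 77 and 48 in mutants. Every T3-treated and every mutant liver was above every hypothyroid WT liver, with hyperthyroid replicate 1 the lowest of its group. Dhrs9 rose with T3 (log2 fold change 2.63 ± 0.42, SE, adjusted p = 0.0010) and in mutants (2.21 ± 0.22, SE, adjusted p = 0.0011). The mean RPKM was 21.02 and 13.3 times that of hypothyroid WT, and hyperthyroid WT and mutants did not pass the test against each other (log2 fold change 0.43 ± 0.44, SE, adjusted p = 0.48). Dhrs9 passed the filter on low values only through the groups where it is high, and its log2 fold change depends on the pseudocount, being 0.84 with T3 and 0.59 in mutants at 1 RPKM and 3.86 and 3.42 at 0.01 RPKM.

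Rdh11, a microsomal enzyme that mostly reduces retinal, did not pass a test. It was at 13.9, 19.99, 26.1 and 20.6 RPKM in hypothyroid WT, at 23.7, 15.9, 22.3 and 36.6 with T3, and at 22.5, 26.4, 35.5 and 50.9 in mutants. The groups overlapped in each comparison, and the mutants were the most spread, with replicates 3 and 4 the farthest above hypothyroid WT. The log2 fold change was 0.26 ± 0.25 with T3 (SE, adjusted p = 0.42) and 0.71 ± 0.26 in mutants (SE, adjusted p = 0.17).

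**Figure D2:**
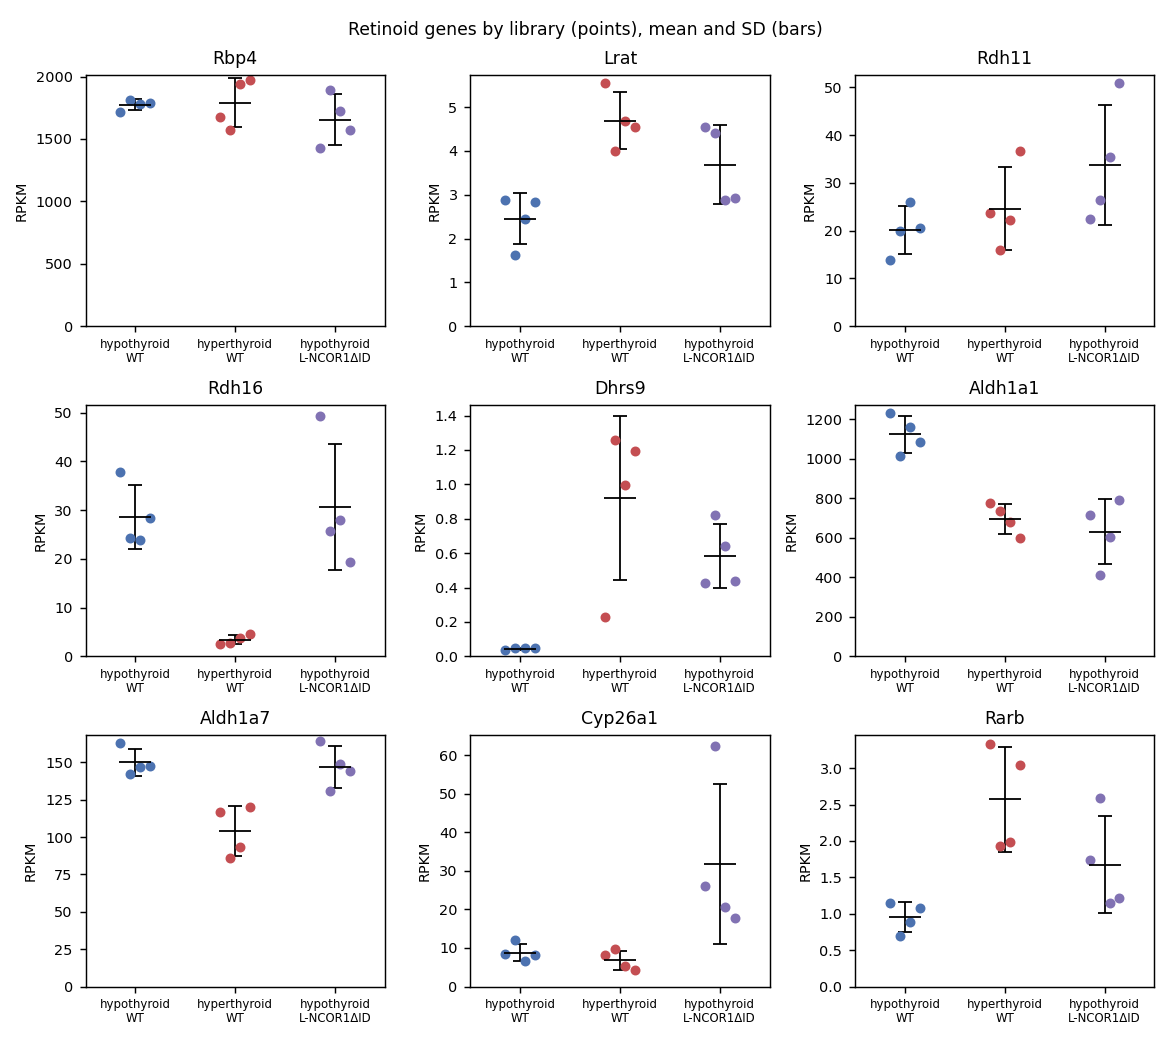
RPKM of the 9 genes in each of the 12 libraries on linear axes from 0, by group, with points for livers and bars for the group mean ± SD (n = 4). Rdh16 is at 2.59 to 4.60 in hyperthyroid WT and at 19.4 or more in both hypothyroid groups, and Cyp26a1 is at 17.7 or more in mutants and at 11.96 or less in both WT groups.

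The retinal dehydrogenases Aldh1a1 and Aldh1a7 are neighbours on chromosome 19 and close relatives, and reads of one may be counted under the other. Their start sites are shown to make this likeness visible: the last 150 bases up to 50 after each start site, at chr19:20676358-20676507 on the plus strand for Aldh1a1 and chr19:20801997-20802146 on the minus strand for Aldh1a7. Capitals mark the 8 bases that differ, and 142 of 150 bases (94.7%) are identical. Most of the bases shown lie before the start site, outside the transcript, and the sharing of reads between the genes was not tested.
Aldh1a1: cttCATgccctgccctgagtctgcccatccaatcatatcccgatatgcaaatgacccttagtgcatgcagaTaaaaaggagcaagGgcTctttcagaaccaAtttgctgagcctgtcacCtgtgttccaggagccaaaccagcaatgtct
Aldh1a7: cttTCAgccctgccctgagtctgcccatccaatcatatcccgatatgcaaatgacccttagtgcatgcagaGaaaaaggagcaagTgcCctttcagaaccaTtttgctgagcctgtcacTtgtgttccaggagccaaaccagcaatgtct
Aldh1a1, which makes retinoic acid and detoxifies aldehydes, was at 1233, 1014, 1164 and 1087 RPKM in hypothyroid WT, at 775, 736, 681 and 600 with T3, and at 716, 412, 603 and 794 in mutants. Every T3-treated and every mutant liver was below every hypothyroid WT liver. The mean was 1.61-fold lower with T3 (log2 fold change -0.69 ± 0.12, SE, adjusted p = 0.0013), under the fold required for a call. In mutants it was 1.78-fold lower (-0.87 ± 0.19, SE, adjusted p = 0.041), over the threshold of 0.01.

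Aldh1a7, whose part in retinoic acid synthesis is less clear, was at 163, 142, 147 and 148 RPKM in hypothyroid WT, at 116, 86.1, 93.2 and 120 with T3, and at 164, 131, 149 and 144 in mutants. The T3-treated livers were below all others, and the mutant and WT hypothyroid livers overlapped. The log2 fold change was -0.54 ± 0.12 with T3 (SE, adjusted p = 0.0043) and -0.03 ± 0.09 in mutants (SE, adjusted p = 0.87). Between hyperthyroid WT and mutants it was -0.51 ± 0.13 (SE, adjusted p = 0.014), which passed the threshold with median-ratio scaling (-0.70, adjusted p = 0.0052). The ratio of Aldh1a1 to Aldh1a7 was 7.15 to 7.91 in hypothyroid WT, 5.01 to 8.55 with T3 and 3.15 to 5.52 in mutants, where it lay below the hypothyroid WT range in all 4 livers.

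The gene for retinoic acid clearance and the RAR gene itself gave different patterns, although both hold a direct repeat at the start site. Cyp26a1 was at 8.52, 11.96, 6.60 and 8.06 RPKM in hypothyroid WT, at 8.12, 9.63, 5.44 and 4.25 with T3, and at 26.1, 62.4, 20.6 and 17.7 in mutants. All mutants were above all WT livers, mutant replicate 2 was far above the other 3, and the WT groups overlapped. Cyp26a1 was lower in hyperthyroid WT than in mutants, 4.62-fold by the means (log2 fold change -2.07 ± 0.40, SE, adjusted p = 0.0039). In mutants against hypothyroid WT the mean was 3.61-fold higher (1.68 ± 0.36, SE), which with an adjusted p of 0.037 was not a call. Without mutant replicate 2 these became -1.69 (adjusted p = 0.0030) and 1.30 (adjusted p = 0.016). The call between hyperthyroid WT and mutants was lost, at adjusted p-values of 0.010 to 0.014, without hyperthyroid replicate 3 or 4 or mutant replicate 1. With T3 the log2 fold change was -0.39 ± 0.26 (SE, adjusted p = 0.24).

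Rarb, the RARβ receptor, was at 1.15, 0.699, 0.880 and 1.08 RPKM in hypothyroid WT, at 3.33, 1.93, 1.99 and 3.05 with T3, and at 1.74, 2.59, 1.15 and 1.22 in mutants. The hyperthyroid livers were all above the hypothyroid WT livers, and so were the mutants, by no more than 1.148 against 1.146 at the nearest. Rarb rose 2.70-fold with T3 (log2 fold change 1.33 ± 0.22, SE, adjusted p = 0.0012). At a pseudocount of 1 RPKM the log2 fold change was 0.86, under the fold required for a call. In mutants the log2 fold change was 0.71 ± 0.26 (SE, adjusted p = 0.17), and between hyperthyroid WT and mutants it was 0.62 ± 0.28 (SE, adjusted p = 0.11). Within the mutants, replicate 2 had the highest Cyp26a1, Dhrs9, Rarb and Rbp4 and the lowest Aldh1a1 and Aldh1a7. Replicates 1 and 2 were also above replicates 3 and 4 for Lrat, Rarb and Cyp26a1.

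In all, 3 of the 9 genes were called with T3, 2 higher (Dhrs9 and Rarb) and 1 lower (Rdh16), where 11.8% of the 13941 genes tested were called (8.28% higher and 3.47% lower). At any fold change, 6 of the 9 and 32.2% of all genes had an adjusted p under 0.01. In mutants, 1 gene was called, Dhrs9, which was higher, against 1.27% of 13790 genes (0.725% higher and 0.544% lower). Its own rise decided that Dhrs9 was tested, with T3 as well as in mutants. Counts of called or non-overlapping genes that include Dhrs9 are therefore no support for a share above that of all genes. The 9 genes, and the gene lists below, were chosen with earlier results of these data known. Their other counts are thus no such support either. In mutants, at an adjusted p under 0.05 there were 3 (Dhrs9, Cyp26a1 and Aldh1a1), against 4.36% of all genes. Between hyperthyroid WT and mutants, 2 were lower, Rdh16 and Cyp26a1, and 0 were higher, against 21.2% of 14017 genes (15.5% higher and 5.7% lower). The groups did not overlap for 6, 4 and 3 genes in these comparisons, where the shares over all genes were 46.6%, 13.1% and 38.3%. The median log2 fold change of the 9 genes was 0.01 with T3, 0.57 in mutants and 0.12 between hyperthyroid WT and mutants, beside 0.23, 0.03 and 0.19 over all genes. The first 2 comparisons share the hypothyroid WT libraries, and the smallest p an exact permutation test of 4 against 4 livers can give is 0.0286.

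**Figure D3:**
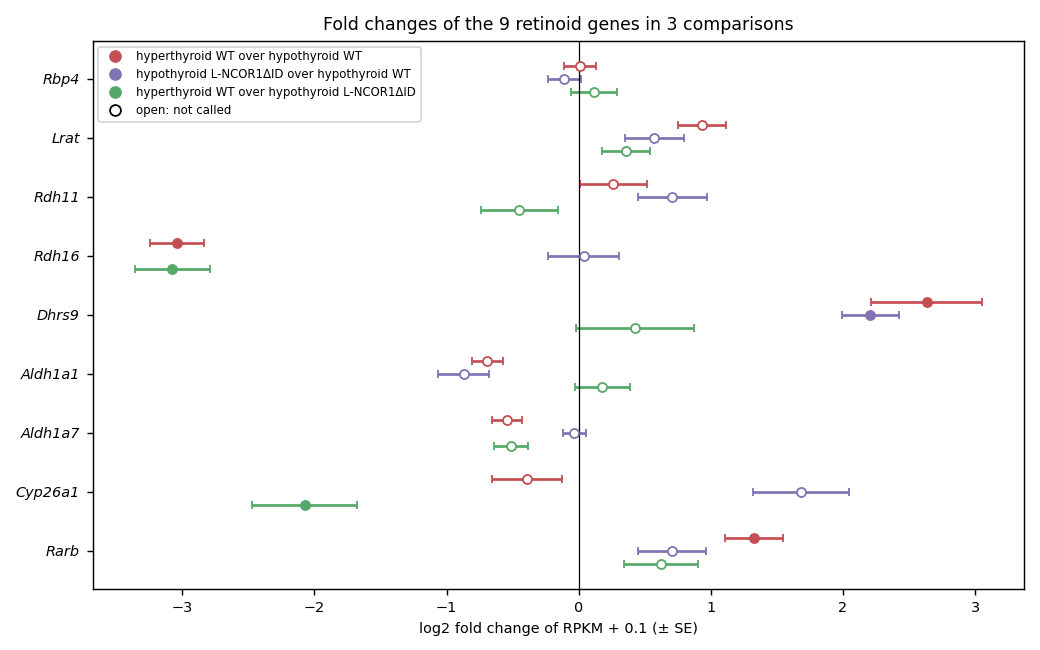
Log2 fold changes with standard errors of the 9 genes in the 3 comparisons, with n = 4 livers per group, in which filled points are calls. The calls are Dhrs9 and Rarb higher and Rdh16 lower with T3, Dhrs9 higher in mutants, and Rdh16 and Cyp26a1 lower in hyperthyroid WT than in mutants.

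A list of 70 other genes of vitamin A handling, in 8 roles, was tested in the same fits. With T3, 10 of the 54 tested rose and 6 fell, with a median log2 fold change of 0.13, and with median-ratio scaling 7 rose and 9 fell. Without this scaling, 8.28% of all genes were called higher and 3.47% lower. With it, 771 of 13916 genes were called higher and 663 lower. In mutants limma called 3 of 54 higher (Fabp5, Dhrs7b and Cyp3a11) and 0 lower, and at an unadjusted p under 0.05 there were 11 higher and 12 lower. Over all 13790 genes tested, 0.725% were called higher and 0.544% lower. At an unadjusted p under 0.05, 1759 of the 13790 were higher and 1072 lower. Between hyperthyroid WT and mutants, 11 of 55 were higher and 13 lower, beside 15.5% and 5.7% of all genes.

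Of the carriers, Ttr, which escorts RBP4 in blood, fell with T3 from 4411 ± 644 to 1502 ± 230 RPKM (SD, n = 4, log2 fold change -1.55, adjusted p = 0.00011). Fabp5, a fatty acid binding protein that also carries retinoic acid, rose in mutants from 1.87 ± 0.427 to 25.3 ± 12.4 (SD, n = 4, log2 fold change 3.55, adjusted p = 0.0016). In ester storage, the lipases Pnpla3 and Pnpla2 rose with T3, by log2 fold changes of 5.24 and 1.04, and the esterases Ces1d and Ces1g fell, by log2 fold changes of -1.77 and -2.31.

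Of the other oxidoreductases, 2 rose and 2 fell with T3 out of 19 tested, beside 8.28% and 3.47% of all genes. At an unadjusted p under 0.05, 6 were higher and 8 lower, beside 5980 and 1897 of 13941 genes. Adh1, the most abundant of them, went from 1358 ± 186 to 706 ± 142 RPKM with T3 (SD, n = 4). Its log2 fold change was -0.96 (adjusted p = 0.0016), just under the fold required for a call. Hsd17b6, a short-chain dehydrogenase related to Rdh16, was at 249, 168, 107 and 201 RPKM in hypothyroid WT, at 0.655, 1.34, 2.06 and 4.04 with T3, and at 91.1, 67.6, 145 and 116 in mutants. It fell 89.6-fold with T3 (log2 fold change -6.62 ± 0.47, SE, adjusted p = 1.7e-05). Adh4, an alcohol dehydrogenase, fell by 1.98 on the log2 scale, and Dhrs7 rose by 1.34. Bco1, which cleaves β-carotene to retinal, rose from 1.87 ± 0.15 to 8.43 ± 2.14 RPKM (SD, n = 4). Aox1, an aldehyde oxidase able to oxidise retinal, fell with T3 from 52.7 ± 3.72 to 13.7 ± 2.42 RPKM (SD, n = 4).

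Of the enzymes that break down retinoic acid, Cyp3a11 was at 224, 301, 183 and 108 RPKM in hypothyroid WT, at 21.7, 47.8, 115 and 82.9 with T3, and at 2671, 2492, 2552 and 2482 in mutants. The mutants were tightly grouped and far above all WT livers, and Cyp3a11 rose 12.5-fold in them (log2 fold change 3.74 ± 0.27, SE, adjusted p = 0.00027). Cyp2c39 rose with T3 from 53.0 ± 26.6 to 285 ± 111 RPKM (SD, n = 4). Of the 5 receptor genes, limma called 0 with T3 and 2 were higher at an unadjusted p under 0.05. Of all 13941 genes tested with T3, 5980 were higher at that threshold. Rxra, the shared partner of RAR and TR, had a log2 fold change of 0.49 ± 0.08 (SE, adjusted p = 0.0012). Of the 10 other RAR targets listed, 5 passed the filter and were tested. Of these, 3 rose with T3, beside 8.28% of all genes: Tgm2 (log2 fold change 1.18), Tnfaip2 (3.00) and Egr1 (3.85). Egr1 was uneven, at 3.44 to 28.7 RPKM in hyperthyroid WT.

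**Figure D4:**
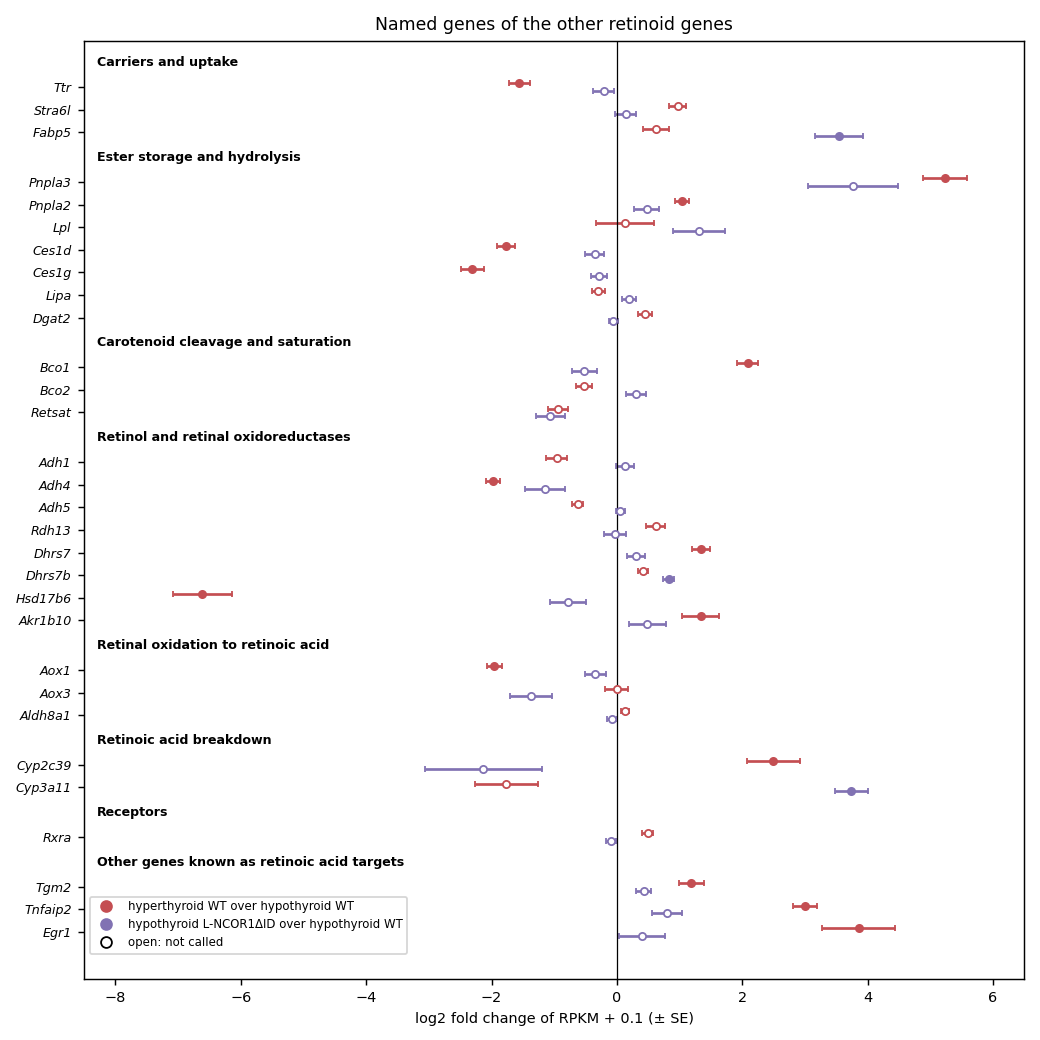
Log2 fold changes of the other named vitamin A genes with T3 and in mutants, grouped by role, with standard errors and n = 4 livers per group, in which filled points are calls. With T3 Hsd17b6 is lowest at -6.62 and Pnpla3 highest at 5.24, and in mutants Cyp3a11 is at 3.74 and Fabp5 at 3.55.

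The profiles nearest to those of the genes with a call were sought over the 12 libraries, by the root mean square difference of centred log2 values. For Rdh16 they were Uox, the urate oxidase (0.296), Tnfrsf19 (0.316) and Nat8 (0.353), where Rdh16 itself deviated by 1.49. For Rarb they were Il18bp (0.207), Axl (0.216) and Slc16a9 (0.218), against 0.647. For Dhrs9 they were Gadd45g (0.577), Cebpb (0.587) and Arntl (0.629), against 1.27, and for Cyp26a1 they were Atp6v0d2 (0.486), Tspyl4 (0.490) and Slc18a1 (0.493), against 1.04.

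Markers of other liver cells moved with T3. The 7 Kupffer cell and macrophage markers measured were all called higher with T3, and summed to 43.6 to 62.3 RPKM in hypothyroid WT, 138 to 227 with T3 and 48.3 to 132 in mutants, where limma called 0 of 7, 2 were higher at an unadjusted p under 0.05, and replicate 2 was highest. The 8 hepatocyte markers summed to 43445 to 55277 RPKM in hypothyroid WT, 22066 to 30675 with T3 and 36586 to 40484 in mutants, a sum that is mostly Alb. With T3, 3 of them (Alb, Ttr and Cyp2e1) fell, while Serpina1b and Hnf4a were higher in all 4 hyperthyroid livers by log2 fold changes of 0.94 (adjusted p = 0.00035) and 0.42 (adjusted p = 0.0041), under the fold required. At an unadjusted p under 0.05, 5 of the 8 were lower and 2 higher. Of all 13941 genes tested with T3, 1897 were lower and 5980 higher at that threshold. Those called were 8.28% higher and 3.47% lower. In mutants, 1759 of 13790 genes were higher at an unadjusted p under 0.05. No defining marker of these cell types was at 0 in all libraries. The part of the marker shifts in the values of the 9 genes was not tested.

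**Figure D5:**
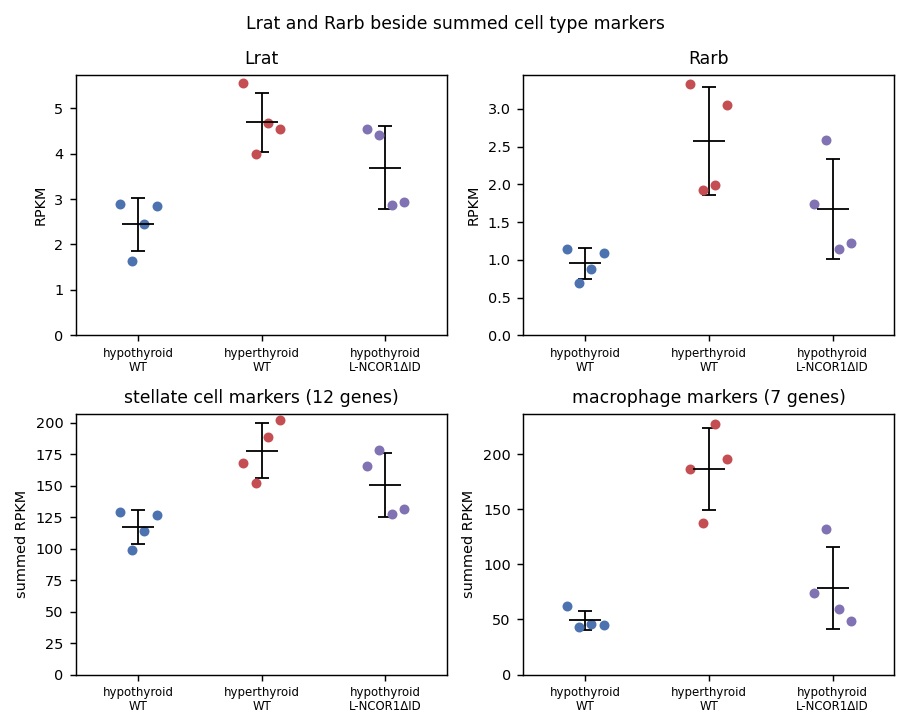
RPKM of Lrat and Rarb, and summed RPKM of 12 stellate cell and 7 macrophage markers, in each of the 12 libraries on linear axes from 0, with points for livers and bars for the group mean ± SD (n = 4). Stellate cell marker sums are 153 to 202 in hyperthyroid WT and 99.3 to 130 in hypothyroid WT, and are mostly Ecm1 and Dcn. Macrophage marker sums are 138 to 227 in hyperthyroid WT and 43.6 to 62.3 in hypothyroid WT.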

How the data were processed

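Per the labels and the study's methods, poly(A) RNA of 4 livers per group was sequenced, and alignment to mm9 was done by the authors in STAR and quantification in HOMER, as RPKM, the unit of the deposited table. Versions and the strand setting are not given in the sources used here, and sequencing used 2 instruments. The authors used DESeq2, whereas RPKM are not counts. The table held 31370 transcripts, of which 1 without a name was left out, and the first row of each of 23813 genes was used. The deposited regions are positions only, with no other values. The filter kept genes that reached 0.1 RPKM in 4 or more of the 8 libraries of a comparison, and limma 3.58.1 (R 4.3.3) was run on log2(RPKM + 0.1) with a trended prior variance, p-values being adjusted by Benjamini-Hochberg, each fit holding only the groups compared. A fold change on this scale understates that of low genes. The study states no threshold for hyperthyroid WT against mutants, and 0.01 was used. Named genes of the vitamin A list are those called in a comparison and the most abundant of each role. The members and lists were chosen with earlier results of these data known. On simulated data, 94.9%, 93.2% and 91.7% of changed genes were called in the right direction in the T3, mutant and hyperthyroid against mutant comparisons (195, 191 and 192 changed genes of 13550, 13528 and 13674). Only changed genes that passed the filter were scored, with normally distributed noise on the scale of the fit. The changes set there were all larger than the fold required with T3, so these shares do not apply to smaller changes. RPKM carry no read totals, and read numbers were recovered from the steps between values for Dhrs9 alone. RefSeq promoters were placed on mm9 by exact match (30638 of 32851). A gene of the lists, which stays in their counts and sums, is not reported here. Alternatives were other pseudocounts, filters, scalings, a fit of all 12 libraries, a replicate block and leaving out each library.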

Additional observations from a re-analysis of the deposited data

Results flagged for a closer look

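In 5 of 129 groups of 4 libraries checked, 1 library lay far from the other 3 by Dixon's ratio, the gap to the nearest library over the group's range, at its 95% critical value. Chance flags about 1 group in 20. Dio1 was at 57.68 RPKM in hypothyroid WT replicate 3 (ratio 0.855), and Ttr at 1843.258 RPKM in hyperthyroid WT replicate 4 (0.836). Ces1d was at 487.18 RPKM in L-NCOR1ΔID replicate 1 (0.906) and Akr1b10 at 0.886 RPKM in replicate 2 of the same group (0.85). Dhrs7 was at 16.877 RPKM in hypothyroid WT replicate 1 (0.879). None of the 9 genes had such a library in any group.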

How the results depend on the processing

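Of 500 values of the 9 genes under alternatives, 471 kept their direction and side of the threshold, 6 lost and 11 gained a call, and 12 changed sign. With median-ratio scaling, the T3 log2 fold change was -0.22 for Rbp4, -0.0974 for Aldh8a1 and -0.0905 for Ncor1, and that between hyperthyroid WT and mutants was -0.074 for Rbp4 and -0.0108 for Aldh1a1. With libraries left out in turn, signs changed for Rbp4 with T3 (-0.0399 to 0.0684), Rdh16 (-0.22 to 0.23) and Aldh1a7 (-0.0881 to 0.0217) in mutants, and Aldh1a1 between hyperthyroid WT and mutants (-0.0109 to 0.30). Genes called then numbered 1430 to 1583 with T3, 67 to 187 in mutants and 1651 to 2672 between hyperthyroid WT and mutants. Of the 9 genes 2 to 4, 0 to 1 and 1 to 2 were called, and of the other vitamin A genes 14 to 18, 3 to 5 and 13 to 20. With T3, a pseudocount of 1 RPKM gave 894 calls with 1 of the 9 genes (Rdh16), and any fold change gave 4488, with 6 of the 9 and 30 of the others. In mutants, an adjusted p under 0.05 gave 601, 3 and 8, a mean of at least 1 RPKM left 0 of the 9, since Dhrs9 is not tested, and median-ratio scaling gave 6 of the others. Between hyperthyroid WT and mutants an adjusted p under 0.05 gave 5407. The replicate numbers did not pair the samples (correlations of -0.123 to 0.166). The replicate block gave 45 calls in mutants, with 0 of the 9 genes and 1 of the others, and 1642 between hyperthyroid WT and mutants, with 15 of the others. Dhrs9 drops from the test without a library of the high group by construction. With a filter in 3 libraries, chosen after seeing the data, it stayed called at 2.43 to 3.12 with T3 and 2.05 to 2.32 in mutants. The median number of regions was 4 within 50 kb and 13 within 200 kb. Other causes were not tested.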

Other observations

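Exocrine pancreas markers, of which 6 were measured, summed to 9.56 to 15.3 RPKM in hypothyroid WT, 73.5 to 91.5 RPKM in hyperthyroid WT replicates 1, 2 and 4, 1100 RPKM in hyperthyroid WT replicate 3 and 5.16 to 9.53 RPKM in L-NCOR1ΔID livers. In hyperthyroid WT replicates 1, 2 and 4 this sum was mostly Cela1, at 83.2, 72.1 and 68.4 RPKM. Lymphocyte markers summed to 1.84 to 4.35, 4.46 to 7.13 and 1.74 to 3.70 RPKM in hypothyroid WT, hyperthyroid WT and L-NCOR1ΔID livers. In the same groups cholangiocyte markers summed to 11.96 to 16.1, 10.4 to 19.2 and 11.3 to 19.3 RPKM. Endothelial cell markers summed to 46.2 to 67.4, 67.3 to 80.7 and 54.4 to 71.9 RPKM. Their part in the values of the 9 genes was not tested.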
